A study of Mus musculus with 12 samples.

Results

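Levels of 10 mRNAs that define cortical interneurons were measured in whole mouse cortex, in a synaptic fraction of it, and in immunoprecipitates of tagged ribosomes from each. The genes were taken by symbol: Gad1, Gad2, Slc32a1, Sst, Pvalb, Vip, Npy, Reln, Cck and Erbb4. All 10 were found among the 29879 genes of the count files, and all 10 passed the filter on low counts that left 13404 genes for testing. The mice all belonged to the SNAP25 BacTRAP line and were 21 days old (postnatal day 21), so the controls carry the transgene too, and the tissue was cortex throughout. A bacTRAP line makes a GFP-tagged ribosomal protein in chosen cells from a bacterial artificial chromosome, here under control of Snap25, a gene active in neurons in general and not in interneurons alone. The 12 libraries form 4 groups of 3. WCH is RNA of the cortex itself, and TRAP is what a GFP immunoprecipitation of its ribosomes brought down. SNF is RNA of the band labelled SN, read here as synaptic, after a sucrose percoll gradient and without immunoprecipitation. SynapTRAP is the GFP immunoprecipitate taken from the same band. All 20 astrocyte markers were higher in SynapTRAP than in TRAP, and how far SynapTRAP holds neuronal RNA alone was not tested. The labels number the replicates but do not say that they came from separate animals or whether animals were pooled, so the p-values measure the spread between these libraries, which may be technical.

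Cortical interneurons are inhibitory cells that make and release GABA. Gad1 and Gad2 encode the glutamate decarboxylases that make GABA in the cytosol, and Slc32a1 encodes the vesicular transporter that loads it into synaptic vesicles. Interneuron classes are told apart by what else they make: the peptides somatostatin (Sst), vasoactive intestinal peptide (Vip), neuropeptide Y (Npy) and cholecystokinin (Cck), the calcium buffer parvalbumin (Pvalb), and the secreted matrix protein reelin (Reln). Erbb4 encodes a neuregulin receptor tyrosine kinase of the cell membrane that is concentrated in interneurons. Cck is also made by many cortical excitatory neurons, so it is the least specific of the 10. Peptide precursors, reelin and membrane proteins are translated on ribosomes at the endoplasmic reticulum, whereas the decarboxylases and parvalbumin are made on free ribosomes.

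Gene counts per library ran from 4368881 to 14335089, but the share from the mitochondrial genome differed strongly between groups. It was 82.2% to 87.3% in SNF and 33.6% to 50.9% in WCH, against 20.4% to 63.3% for SynapTRAP and 0.93% to 5.43% for TRAP. This left 1819853 to 7115176 counts per library outside that genome. SynapTRAP replicate 3 stood apart within its group with the 63.3% share, against 34.6% and 20.4% in replicates 1 and 2, so the fold changes of the members that involve SynapTRAP are also given without it. Levels are in counts per 1000000 (CPM) with library sizes scaled by TMM, which assumes that most genes do not differ. The fold changes and adjusted p-values below come from edgeR's quasi-likelihood test with Benjamini-Hochberg adjustment over all 13404 genes, and a difference counts as called at an adjusted p under 0.05. Scaling by total counts instead moves the median log2 fold change of all genes in SNF against WCH from -0.25 to -2.60 and turns the sign of Vip, Npy, Cck and Erbb4 there. With total counts, the members called were 0 higher and 4 lower in SNF against WCH and 6 higher and 0 lower in TRAP against WCH, where Vip (-0.59, adjusted p = 0.305) and Erbb4 (-0.88, adjusted p = 0.0684) lost their calls. For SynapTRAP against TRAP they were 1 higher and 3 lower, and Slc32a1 (0.66, adjusted p = 0.153), Reln (0.68, adjusted p = 0.107) and Erbb4 (0.702, adjusted p = 0.098) lost theirs. All 10 were called higher in SynapTRAP against SNF with that scaling, as were 12171 of the 13404 genes. Of all genes it called 11 higher and 11441 lower in SNF against WCH, and 2862 higher and 231 lower in TRAP against WCH. For SynapTRAP against TRAP these were 594 higher and 6403 lower, so the member counts follow a shift of all genes. With respect to the median of all genes in SNF against WCH, 7 of the 10 genes lay above and 3 below under each of the 4 scalings tried. A change of scaling moves every gene and the median by about the same amount. This count could therefore hardly change and is no check on the scaling. All differences are therefore relative to the bulk of nuclear-encoded mRNA, and no absolute amount per synapse or per cell is given. In bulk libraries, fewer cells of a type and less RNA per cell cannot be told apart.

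Because the 10 products differ in where they are made, the starts of their coding sequences are shown for members whose levels moved apart. The first 75 bases are printed 5′ to 3′ from the spliced coding sequence in GENCODE M21 (GRCm38), with capitals on codons whose second base is T; such codons encode the hydrophobic residues of which signal peptides are largely built.
Gad2 (chr2:22622205-22693874, plus strand): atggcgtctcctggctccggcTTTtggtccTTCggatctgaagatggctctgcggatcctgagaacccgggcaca
Pvalb (chr15:78191114-78206400, minus strand): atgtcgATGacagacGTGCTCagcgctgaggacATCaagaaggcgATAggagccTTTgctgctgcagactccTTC
Slc32a1 (chr2:158610767-158615748, plus strand): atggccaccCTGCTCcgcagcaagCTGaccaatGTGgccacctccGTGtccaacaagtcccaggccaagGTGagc
Sst (chr16:23889573-23890958, minus strand): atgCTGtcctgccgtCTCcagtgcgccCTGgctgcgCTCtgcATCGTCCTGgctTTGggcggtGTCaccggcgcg
Vip (chr10:5639218-5647617, plus strand): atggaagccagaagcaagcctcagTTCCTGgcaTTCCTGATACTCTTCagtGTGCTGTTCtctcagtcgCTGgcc
Npy (chr6:49822710-49829507, plus strand): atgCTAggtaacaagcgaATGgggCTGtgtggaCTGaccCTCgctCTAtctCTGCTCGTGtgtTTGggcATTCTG
In codons 2 to 25, the share with T at the second base was 4.17% for Gad1, 8.33% for Gad2, 25% for Slc32a1, 29.2% each for Pvalb and Erbb4, 37.5% each for Sst and Reln, 41.7% for Cck, 45.8% for Vip and 50% for Npy. The 5 secreted products thus had the highest shares of the 10, and the 2 decarboxylases the lowest. The median over the 12891 tested genes with a coding start was 25%. This feature was chosen after the levels had been seen, and it is a description of the sequence, not a test for a signal peptide.

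Per kilobase of exon, Cck was the most abundant of the 10 mRNAs in every group, at 204 ± 52.9 CPM per kb in WCH, 576 ± 283 in TRAP, and 682 ± 224 and 619 ± 267 in SNF and SynapTRAP (mean ± SD, n = 3 in each group). Npy and Sst followed in every group; in WCH they stood at 99.3 ± 32.7 and 94.8 ± 23.6 CPM per kb, closer than their spread. Gad2 was the fourth in each group, at 40.1 ± 7.56 CPM per kb in WCH, and Gad1 was lower than Gad2 at 13.9 ± 1.55, beside Pvalb at 14.1 ± 1.01. The other members changed places between groups. Slc32a1 was the ninth in WCH at 3.66 ± 0.35 CPM per kb and the fifth in SNF at 19.1 ± 6.88, where it overlapped the spread of Gad2 at 24.8 ± 3.04 and of Erbb4 at 15.8 ± 2.53. Vip was the last in TRAP at 1.76 ± 0.09 CPM per kb, with Reln at 2.16 ± 0.40 and Erbb4 at 2.32 ± 0.20 just above it. Pvalb was the fifth in WCH and TRAP and the ninth in both synaptic preparations, at 8.85 ± 1.61 CPM per kb in SNF and 6.66 ± 2.36 in SynapTRAP, not separable there from Reln at 8.37 ± 1.96 and 6.60 ± 1.33.

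**Figure D1:**
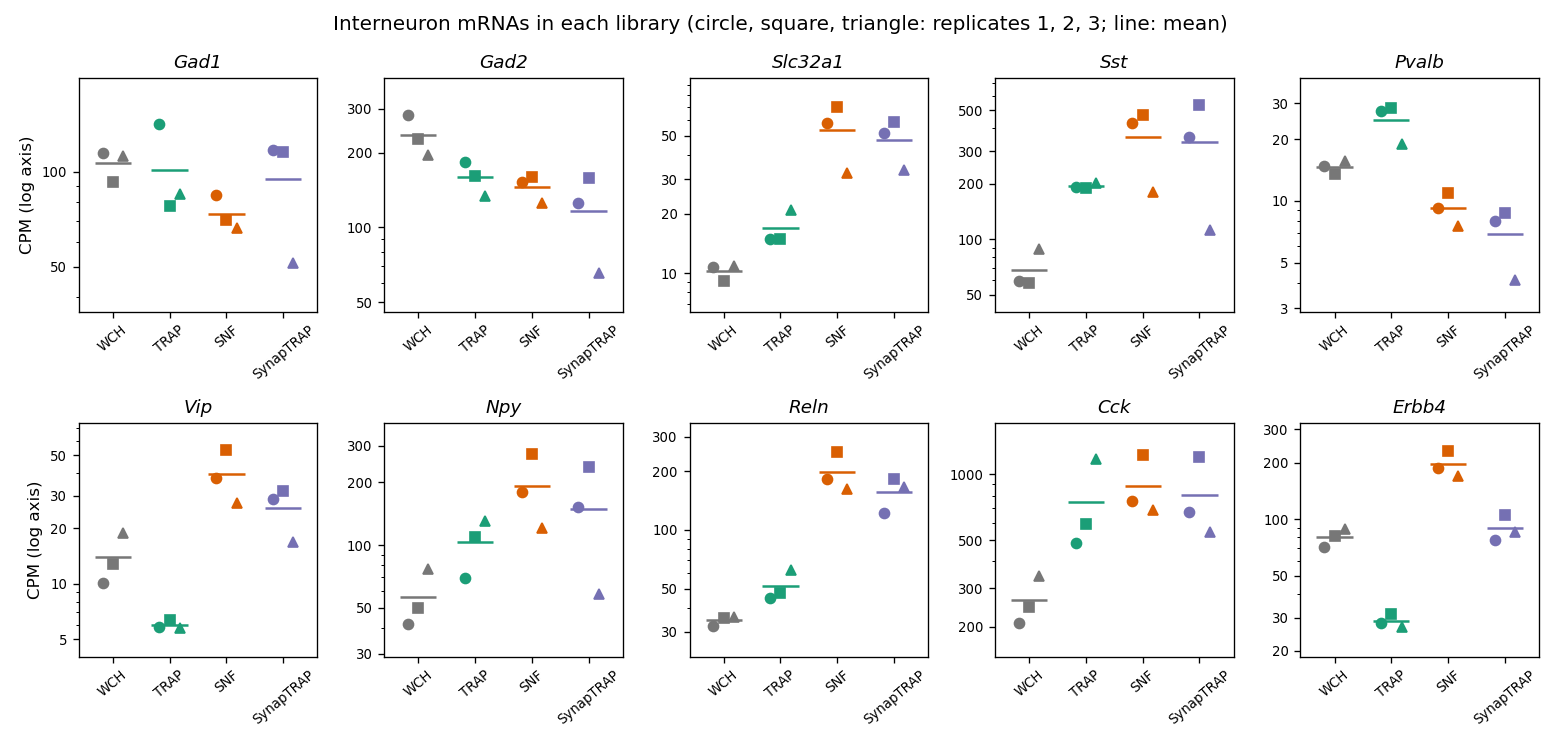
CPM on a log axis for each of the 10 genes (1 panel each, with its own range) in the 3 libraries of WCH, TRAP, SNF and SynapTRAP; circles, squares and triangles are replicates 1, 2 and 3 and the line is the mean. Slc32a1, Vip, Reln, Sst, Npy, Cck and Erbb4 lie higher in all SNF libraries than in all WCH libraries, while Gad1, Gad2 and Pvalb lie lower.

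In the synaptic band, 7 of the 10 mRNAs were higher than in whole cortex and 1 was lower. Slc32a1, Sst, Vip, Npy, Reln, Cck and Erbb4 rose, Gad2 fell, and Gad1 and Pvalb did not pass the test. Of all genes tested, 37% were called in this comparison, 20.6% as higher and 16.5% as lower. The median log2 fold change of the 10 was 1.62, against -0.25 over all genes. The SNF and WCH libraries did not overlap for any of the 10, with 7 above and 3 below; over all genes 25.6% lay above and 33.6% below without overlap. Leaving out any 1 of the 6 libraries kept all 7 higher calls.

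On tagged ribosomes from cortex, the 10 mRNAs split. Against WCH, Sst, Cck and Pvalb were higher in TRAP and Vip and Erbb4 were lower, beside a background of 22% of genes called (11.1% higher and 10.9% lower). The other 5 did not pass. The TRAP libraries of 5 members lay above and 3 below without overlap, where 20.6% and 22.5% of all genes did. A fit on the 6 libraries of these groups alone called 8 members, 6 higher and 2 lower, so the number called depends on the libraries fitted. It called 3583 of all genes in place of 2947. That fit had its own filter, scaling and spread, and their parts were not separated. With no filter on low counts 7 members were called, 5 higher and 2 lower, beside 3190 of all genes, 1590 higher and 1600 lower. The median of the 10 was 0.65, against -0.01 over all genes.

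**Figure D2:**
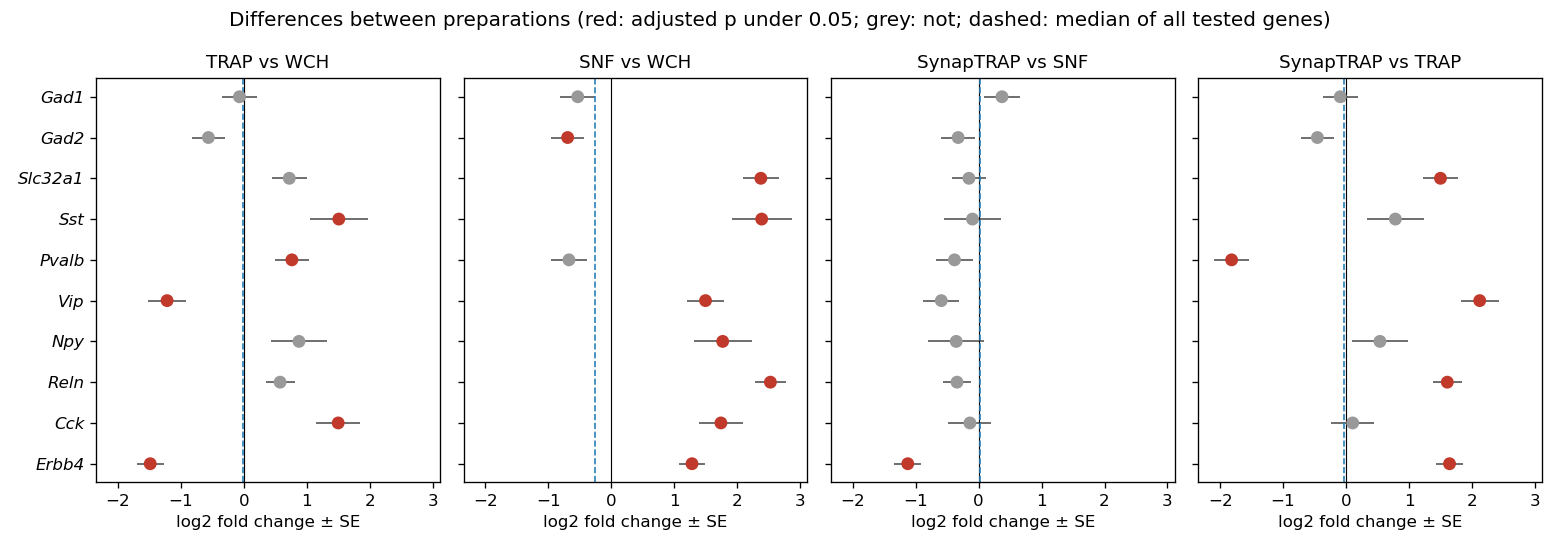
Log2 fold change ± SE of each of the 10 genes in 4 comparisons, in red where the adjusted p is under 0.05; the dashed line is the median of all tested genes. Vip and Erbb4 are negative in TRAP against WCH (-1.22 and -1.49) and positive in SNF against WCH (both above 1), and 9 of the 10 genes are grey in SynapTRAP against SNF.

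The enzymes of GABA synthesis and its vesicular transporter parted in the synaptic band. Gad1 (chr2:70553072-70602014) measured 114, 92.8 and 112 CPM in the WCH libraries, 142, 77.7 and 84.9 in TRAP, 84.6, 70.2 and 66.2 in SNF and 118, 116 and 51.5 in SynapTRAP. The WCH libraries all lay above the SNF libraries, whereas TRAP and SynapTRAP each contained 1 library far from its partners. Gad1 was not called in any comparison of the fit to all 12 libraries; its log2 fold change was -0.53 ± 0.28 (SE) in SNF against WCH (adjusted p = 0.14) and -0.07 ± 0.28 (SE) in TRAP against WCH (adjusted p = 0.884). In a fit to the SNF and WCH libraries alone it was called lower (-0.41, adjusted p = 0.0466), which made 9 members called there, 7 higher and 2 lower. That fit called 6069 of all genes, 3434 higher and 2635 lower, in place of 4966. Gad2, the isoform tied more closely to nerve terminals at the protein level, measured 284, 227 and 196 CPM in the WCH libraries, 183, 161 and 134 in TRAP, 152, 160.1 and 126 in SNF and 125, 158 and 65.6 in SynapTRAP. Every SNF, TRAP and SynapTRAP library was below every WCH library. Its fall in SNF against WCH was small, -0.69 ± 0.27 (SE) (adjusted p = 0.0446), and the call was lost on leaving out WCH replicate 1 (-0.43, adjusted p = 0.317), WCH replicate 2 (-0.72, 0.0833), SNF replicate 1 (-0.73, 0.0962), SNF replicate 2 (-0.77, 0.0755) or SNF replicate 3 (-0.60, 0.138), in DESeq2 (-0.56, adjusted p = 0.11) and with RLE scaling in edgeR (-0.56, adjusted p = 0.122).

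Slc32a1 measured 10.8, 9.12 and 10.8 CPM in the WCH libraries, 14.9, 14.9 and 20.98 in TRAP, 58.1, 69.7 and 32.1 in SNF and 51.3, 58.4 and 33.5 in SynapTRAP. All SNF and SynapTRAP libraries lay above all WCH and TRAP libraries. It was 5.19-fold higher in SNF than in WCH, a log2 fold change of 2.38 ± 0.29 (SE) (adjusted p = 4.04e-06), and 2.83-fold higher in SynapTRAP than in TRAP, 1.501 ± 0.27 (SE) (adjusted p = 0.0002). Without SynapTRAP replicate 3 the latter was 1.70 (adjusted p = 2.44e-05). Its TRAP to WCH difference was 0.72 ± 0.28 (SE) and missed the threshold (adjusted p = 0.0626), but passed with no filter on low counts (adjusted p = 0.037) and in the fit to these groups alone (0.76, adjusted p = 0.0216). The exons of Slc32a1 overlap those of the antisense gene Gm14205, and without a stated strand setting the reads of the pair cannot be told apart. Within a library the ratio of Gad2 to Slc32a1 does not depend on scaling: its log2 value was 4.51 ± 0.29 in WCH, 3.25 ± 0.50 in TRAP, and 1.52 ± 0.40 and 1.23 ± 0.24 in SNF and SynapTRAP (mean ± SD, n = 3). The SynapTRAP values were 1.29, 1.43 and 0.97 in replicates 1, 2 and 3.

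The 4 peptide mRNAs were all higher in the synaptic band than in cortex, but differed in the immunoprecipitates. Sst measured 59.2, 57.9 and 88.02 CPM in the WCH libraries, 193, 189 and 202 in TRAP, 425, 471 and 179.5 in SNF and 360.0, 532 and 113 in SynapTRAP. The WCH libraries were the lowest, the TRAP libraries lay within a narrow band, and replicate 3 was the lowest in both SNF and SynapTRAP. Sst rose 5.24-fold in SNF against WCH, 2.39 ± 0.48 (SE) on the log2 scale (adjusted p = 0.00161). Between TRAP and WCH the rise was 1.51 ± 0.46 (SE) (adjusted p = 0.033), a call that was lost without WCH replicate 1 (1.46, adjusted p = 0.103), WCH replicate 2 (1.401, 0.119), WCH replicate 3 (1.74, 0.0531), TRAP replicate 1 (1.54, 0.0647) or TRAP replicate 3 (1.52, 0.0686), although the TRAP and WCH libraries do not overlap. In SynapTRAP against TRAP the difference of 0.78 ± 0.45 (SE) did not pass (adjusted p = 0.189); without SynapTRAP replicate 3 it was 1.19 and passed (adjusted p = 0.0038), as it did with no filter on low counts (0.77, adjusted p = 0.0179).

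Npy, often made in the same cells as Sst, measured 41.6, 50.01 and 77.01 CPM in the WCH libraries, 69.8, 109.6 and 130.0 in TRAP, 180.4, 274 and 121 in SNF and 153, 238 and 57.9 in SynapTRAP. All SNF libraries were above all WCH libraries, and the SynapTRAP libraries spanned the TRAP range, with replicate 3 the lowest. Npy rose 3.41-fold in SNF against WCH, 1.77 ± 0.46 (SE) (adjusted p = 0.00934). Its difference in TRAP against WCH was 0.88 ± 0.45 (SE) and did not pass (adjusted p = 0.184). That difference was called with no filter on low counts (0.88, adjusted p = 0.00698) and in the fit to these groups alone (0.91, adjusted p = 0.0156). Between SynapTRAP and TRAP the Npy difference was 0.54 ± 0.45 (SE) (adjusted p = 0.366), or 0.92 without SynapTRAP replicate 3 (adjusted p = 0.0381).

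Vip marks a class of interneurons that contacts other interneurons. It measured 10.03, 12.8 and 18.98 CPM in the WCH libraries, 5.85, 6.34 and 5.74 in TRAP, 37.4, 53.2 and 27.5 in SNF and 29.03, 31.9 and 16.8 in SynapTRAP. The TRAP libraries were the lowest, all SNF libraries lay above all WCH libraries, and the SynapTRAP range overlapped both. Vip was 2.33-fold lower in TRAP than in WCH, -1.22 ± 0.30 (SE) (adjusted p = 0.00634), although without WCH replicate 3 the value was -0.93 and did not pass (adjusted p = 0.0574). It was 2.82-fold higher in SNF than in WCH, 1.498 ± 0.29 (SE) (adjusted p = 0.000412), and 4.36-fold higher in SynapTRAP than in TRAP, 2.12 ± 0.30 (SE) (adjusted p = 1.62e-05; 2.35 without SynapTRAP replicate 3). These rest on few reads in the TRAP group, where Vip had 67 to 86 raw counts per library.

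Cck measured 209, 246 and 343 CPM in the WCH libraries, 487, 594 and 1173 in TRAP, 754, 1225 and 689 in SNF and 676, 1204 and 545 in SynapTRAP. TRAP replicate 3 was close to the highest synaptic libraries, and the TRAP, SNF and SynapTRAP ranges overlap while all lie above WCH. Cck rose 2.83-fold in TRAP against WCH, 1.499 ± 0.35 (SE) (adjusted p = 0.00478; 1.06 without TRAP replicate 3), and 3.35-fold in SNF against WCH, 1.74 ± 0.35 (SE) (adjusted p = 0.000603). SynapTRAP did not differ detectably from TRAP, with 0.11 ± 0.34 (SE) and a 95% interval of -0.60 to 0.81 (0.32 without SynapTRAP replicate 3). Both rises are measured against the same 3 WCH libraries.

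Parvalbumin mRNA was higher in TRAP than in WCH and lower in SynapTRAP than in TRAP. Pvalb measured 14.7, 13.6 and 15.7 CPM in the WCH libraries, 27.5, 28.3 and 18.9 in TRAP, 9.21, 10.9 and 7.54 in SNF and 7.94, 8.73 and 4.13 in SynapTRAP. All TRAP libraries were above all WCH libraries, and every synaptic library was below every WCH and TRAP library. Pvalb was 1.70-fold higher in TRAP than in WCH, 0.76 ± 0.27 (SE) (adjusted p = 0.0429); this call was lost without WCH replicate 1 (0.81, adjusted p = 0.098), WCH replicate 2 (0.71, 0.153), WCH replicate 3 (0.82, 0.0953), TRAP replicate 1 (0.71, 0.0941) or TRAP replicate 2 (0.70, 0.109). In SNF against WCH the difference of -0.67 ± 0.29 (SE) did not pass (adjusted p = 0.0728). In SynapTRAP Pvalb was 3.52-fold lower than in TRAP, -1.82 ± 0.28 (SE) (adjusted p = 3.79e-05; -1.58 without SynapTRAP replicate 3), and it was the only one of the 10 called lower there with all 12 libraries. The raw counts behind the SNF values were 31 to 41 per library.

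Reelin, a very large secreted glycoprotein read by the lipoprotein receptors Vldlr and Lrp8, is encoded by Reln (chr5:21884454-22344702), which measured 32.03, 35.3 and 35.9 CPM in the WCH libraries, 44.5, 47.4 and 62.1 in TRAP, 183, 251 and 162 in SNF and 122, 182 and 166 in SynapTRAP. The 6 synaptic libraries were all above the 6 others. Reln rose 5.77-fold in SNF against WCH, 2.53 ± 0.24 (SE) (adjusted p = 2.32e-06), a value not separable from those of Sst and Slc32a1, and was 3.05-fold higher in SynapTRAP than in TRAP, 1.61 ± 0.23 (SE) (adjusted p = 2.07e-05; 1.56 without SynapTRAP replicate 3). The TRAP to WCH value of 0.58 ± 0.23 (SE) did not pass (adjusted p = 0.0761), except in the fit to these groups alone (0.61, adjusted p = 0.0265). Exons of Reln overlap those of the antisense gene Gm10475, with the same limit as for Slc32a1.

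Erbb4 was the only one of the 10 called in all 4 comparisons between groups. Its gene lies at chr1:68032186-69108059, and it measured 71.5, 81.6 and 88.2 CPM in the WCH libraries, 27.9, 31.5 and 26.6 in TRAP, 187, 231 and 170.0 in SNF and 77.8, 106 and 85.5 in SynapTRAP. No 2 neighbouring groups overlapped except WCH and SynapTRAP. Erbb4 was 2.80-fold lower in TRAP than in WCH, -1.49 ± 0.22 (SE) (adjusted p = 0.00015), and 2.43-fold higher in SNF than in WCH, 1.28 ± 0.21 (SE) (adjusted p = 8.31e-05). It was 3.13-fold higher in SynapTRAP than in TRAP, 1.64 ± 0.22 (SE) (adjusted p = 7.32e-06; 1.68 without SynapTRAP replicate 3). The ratio of Erbb4 to Reln within a library, as a log2 value, was 1.22 ± 0.07 in WCH, -0.83 ± 0.34 in TRAP, and -0.01 ± 0.10 and -0.79 ± 0.16 in SNF and SynapTRAP (mean ± SD, n = 3), so both immunoprecipitates, each SynapTRAP library included (-0.64, -0.78 and -0.96), held less Erbb4 per Reln than their inputs.

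Immunoprecipitation from the synaptic band left 9 of the 10 mRNAs without a called difference. Erbb4 alone passed in SynapTRAP against SNF, 2.18-fold lower at -1.13 ± 0.21 (SE) (adjusted p = 0.00683), where 4.08% of all genes were called, 2.29% higher and 1.79% lower. It was also the only member whose libraries did not overlap, being below in every SynapTRAP library as were 10% of all genes. Its call held without SynapTRAP replicate 3 (-1.09, adjusted p = 0.0111) and was lost without SNF replicate 2 (-0.99, adjusted p = 0.062). The other 9 ran from -0.59 for Vip (95% interval -1.19 to 0.00) to 0.37 for Gad1 (-0.21 to 0.95); for Sst the interval was -1.07 to 0.87 and for Npy -1.32 to 0.61, and differences within these bounds were not detectable with 3 libraries a group. Without SynapTRAP replicate 3 they ran from -0.38 for Reln to 0.67 for Gad1, and none passed. A fit with the replicate number as a block, which pairs these groups, called 834 genes in place of 547 and Erbb4 again as the only member (adjusted p = 0.00218).

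From TRAP to SynapTRAP, Slc32a1, Vip, Reln and Erbb4 were higher and Pvalb was lower, with 39.8% of all genes called (21.6% higher and 18.1% lower). The same 5 members had SynapTRAP and TRAP libraries that did not overlap, 4 above and 1 below, as did 21.4% of all genes in each direction. The median of the 10 was 0.66, against -0.02 over all genes. Gad1 gave -0.09 ± 0.28 (SE) (95% interval -0.66 to 0.48) and Gad2 -0.45 ± 0.26 (SE) (-1.001 to 0.09). Without SynapTRAP replicate 3 these were 0.20 and -0.17, Sst and Npy passed as well, and 7 members were called. Without SynapTRAP replicate 2, Gad2 was called lower (-0.74, adjusted p = 0.0394), giving 6 members, 4 higher and 2 lower. Of all genes, 5613 were called without replicate 3 and 4557 without replicate 2, against 5331 with all libraries.

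Whether the pull-down moved a gene differently in the band than in homogenate was tested as an interaction, SynapTRAP against SNF minus TRAP against WCH. None of the 10 passed in the edgeR fit used throughout, where 0.865% of all genes were called, 0.507% higher and 0.358% lower. DESeq2 called 2 (Cck and Reln, both lower), beside 565 of all genes, 175 higher and 390 lower, where the edgeR fit called 116. With no filter on low counts edgeR called 3, all lower: Sst (-1.58, adjusted p = 0.00545), Npy (-1.21, adjusted p = 0.0396) and Cck (-1.61, adjusted p = 0.0117). Of all genes it then called 512, 310 higher and 202 lower. Cck had the most negative value, -1.64 ± 0.49 (SE) (adjusted p = 0.0975), and it passed without TRAP replicate 1 (-2.004, adjusted p = 0.0372), without SynapTRAP replicate 2 (-2.04, adjusted p = 0.028) and in the fit with the replicate block (-1.62, adjusted p = 0.0445). Sst gave -1.61 ± 0.64 (SE) (adjusted p = 0.214) and Pvalb -1.15 ± 0.40 (SE) (adjusted p = 0.142). Without SynapTRAP replicate 3 none passed, and the values of Cck, Sst and Pvalb were -1.42, -1.19 and -0.903. Cckbr, the brain receptor for cholecystokinin, did pass with -1.62 (adjusted p = 0.0332), as the only 1 of 16 tested receptors and ligands of the members. Without WCH replicate 2, and without SNF replicate 1, 0 of all genes passed, so its call was lost there.

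Levels relative to Gad1 within a library do not depend on the scaling of libraries. The log2 ratio of Slc32a1 to Gad1 was -3.37 ± 0.03 in WCH, -2.55 ± 0.63 in TRAP, and -0.53 ± 0.52 and -0.94 ± 0.29 in SNF and SynapTRAP (mean ± SD, n = 3). For Sst to Gad1 the means were -0.66, 0.99, 2.17 and 1.65 in the same order. For Vip to Gad1 they were -2.98, -4.03, -0.95 and -1.83, lowest in TRAP. Pvalb to Gad1 ran -2.86, -1.997, -3.01 and -3.75, so Pvalb lost ground even to Gad1 in SynapTRAP. SynapTRAP replicate 3 stood at -0.62, 1.13, -1.61 and -3.64 in these 4 ratios, against -1.20, 1.61, -2.02 and -3.89 in replicate 1 and -0.99, 2.20, -1.86 and -3.73 in replicate 2. Among class markers, Sst to Pvalb widened from 2.20 ± 0.26 in WCH to 5.18 ± 0.53 in SNF and 5.40 ± 0.58 in SynapTRAP (4.77 in replicate 3), and Sst to Vip was widest in TRAP at 5.03 ± 0.12 against 2.32 ± 0.21 in WCH. Against the mean of 20 pan-neuronal markers, Sst stood at -1.81 ± 0.30 in WCH and 0.84 ± 0.76 in SNF, while Gad1 stood at -1.16 ± 0.19 and -1.33 ± 0.27. These ratios were given no test.

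**Figure D3:**
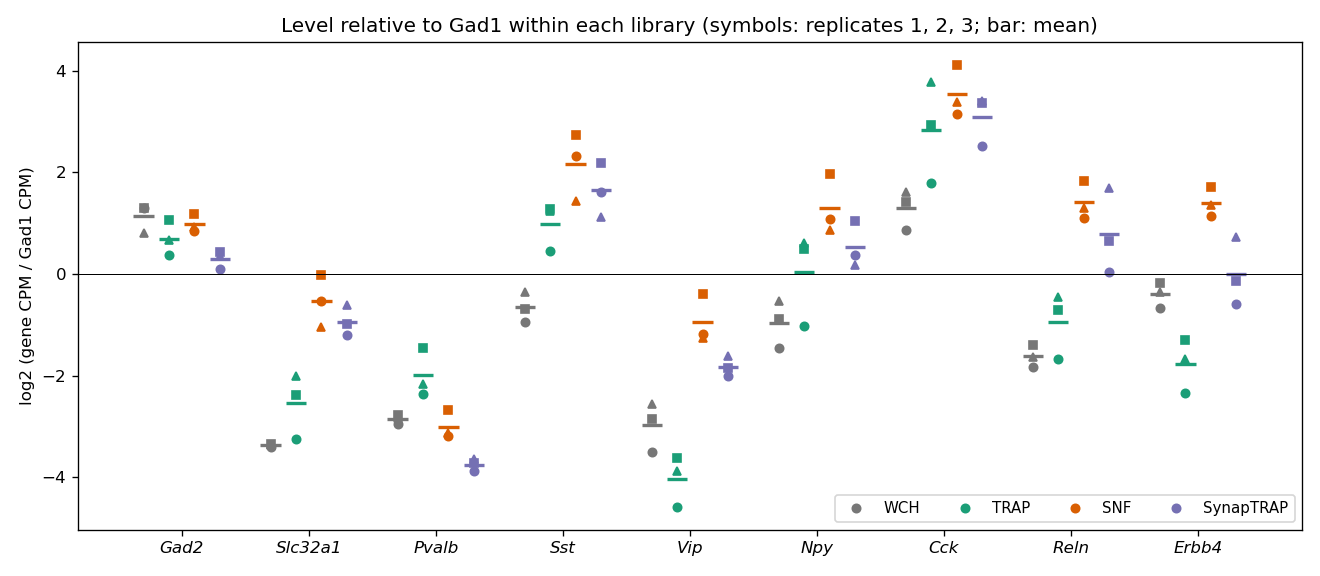
Log2 ratio of each gene's CPM to that of Gad1 in the same library, for 9 genes and 4 groups; symbols are replicates 1 to 3 and bars are means. Gad2 and Pvalb stay within about the same range in WCH and SNF, while Slc32a1, Sst, Vip, Npy, Reln, Cck and Erbb4 are higher in SNF than in WCH in every library.

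Other genes of the same systems were read from fixed lists. Over all genes, 20.6% were called higher and 16.5% lower in SNF against WCH. The shares were 21.6% and 18.1% in SynapTRAP against TRAP. Of 10 genes of GABA handling, 8 were higher and 1 was lower in SNF than in WCH (median 1.55). Slc6a11, a GABA transporter of the plasma membrane found largely in astrocytes, rose by 2.25 on the log2 scale. For TRAP against WCH 1 of the 10 was called, Aldh5a1, an enzyme of GABA breakdown, lower at -0.79. Of all genes, 11.1% were called higher and 10.9% lower in that comparison, so this count is near the background.

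Of 17 tested precursors of other neuropeptides (22 listed), 13 were higher in SNF than in WCH and none was lower (median 1.67). Penk, the enkephalin precursor, rose by 1.87, Tac2 by 2.06 and Pdyn, the dynorphin precursor, by 1.61. Of 17 genes of peptide processing and dense core vesicles, 14 were higher and 3 were lower (median 1.88). The granins and granin-like cargo proteins led, with Scg2 at 2.45, Vgf at 2.59 and Scg3 at 2.24. The 3 that fell were Cadps2 at -0.99, Cadps at -0.74 and Ica1 at -0.92; the first pair encode cytosolic priming factors of vesicle release. In SynapTRAP against TRAP, 13 of these 17 were higher and 3 were lower, and of the 17 precursors 7 were higher and none was lower. Without SynapTRAP replicate 3 the counts were 13 and 3, and 9 and 0.

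Of 36 tested other interneuron genes (38 listed, 5 of them also on the precursor list), 15 were higher and 4 were lower in SNF than in WCH (median 0.36). Those that rose included Elfn1, a postsynaptic membrane protein of interneuron inputs, at 2.07, the receptor kinase Kit at 1.82 and the secreted Crhbp at 2.02. Those that fell included the transcription factor Prox1 at -0.99, the cytosolic calcium buffer Calb1 at -0.96 and Adarb2, an inactive relative of the RNA editing enzymes, at -0.99. Between TRAP and WCH 3 were higher and 4 were lower of 36, near the 11.1% and 10.9% of all genes; the lower ones of smallest adjusted p were Prox1, Sox6 and Maf at -1.19, -1.23 and -0.93. In SynapTRAP against TRAP 16 were higher and 1, Calb1, was lower (17 and 1 without SynapTRAP replicate 3). In SynapTRAP against SNF 2 were lower, Cnr1 and Kcnc2; without SynapTRAP replicate 3 none was called.

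Receptors and ligands of the members rose in the band as well, 12 of 16 tested (19 listed) with none lower (median 1.13). They included Cckbr at 1.56, the neuropeptide Y receptor Npy2r at 1.78 and the reelin receptor Vldlr at 1.15. In TRAP against WCH 2 of the 16 were higher and 2 were lower, near the 11.1% and 10.9% of all genes. Cckbr (1.03) and the somatostatin receptor Sstr2 (1.29) were higher, and Vldlr (-1.12) and Lrp8 (-0.71) were lower.

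**Figure D4:**
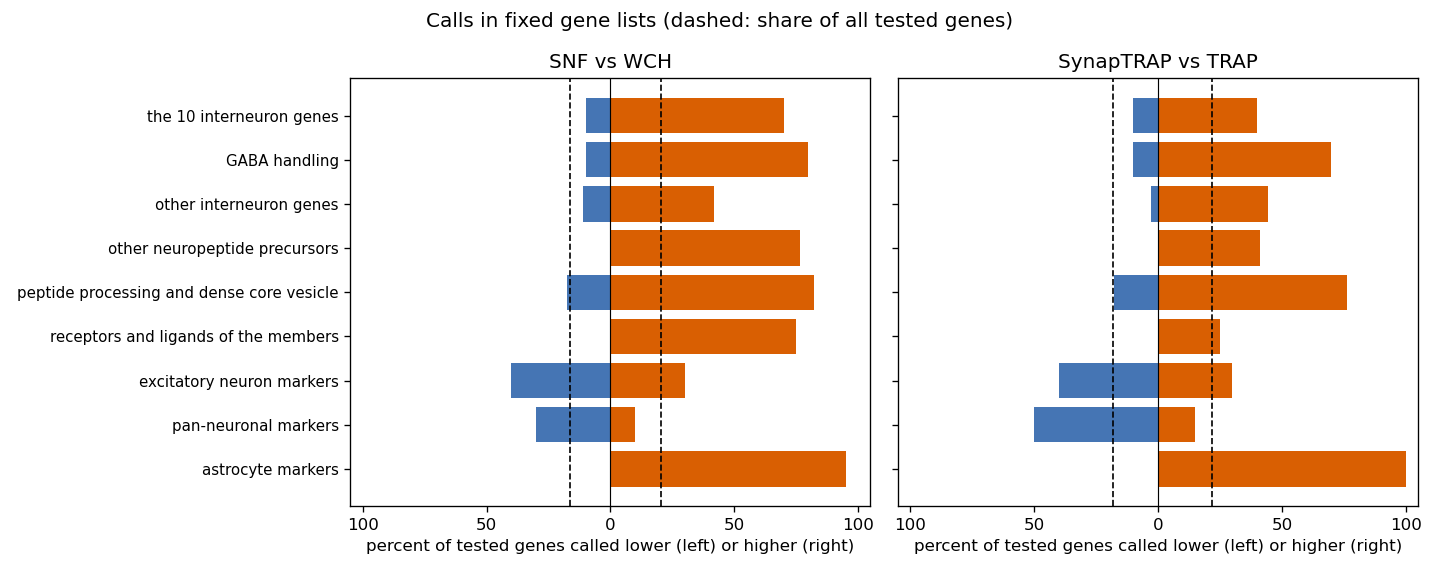
Percent of the tested genes of each fixed list called lower (left) or higher (right) in SNF against WCH and in SynapTRAP against TRAP, with dashed lines at the shares of all tested genes. In SNF against WCH the lists of peptide processing genes, other peptide precursors and receptors lie far to the right of the dashed line, and so does the list of astrocyte markers.

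Markers of other cells moved along with these results. Of 20 astrocyte markers 19 were higher in SNF than in WCH and none was lower, and their summed level was 15818 to 21373 CPM in SNF, 2649 to 3325 in WCH, 864 to 1752 in TRAP and 10723 to 18374 in SynapTRAP. All 20 microglia markers were higher in SNF, with sums of 470.0 to 921 CPM against 127 to 148 in WCH, as were 12 of 19 oligodendrocyte markers; no marker of these 3 lists was at 0 in a whole group. In TRAP against WCH, 10 of the astrocyte, 7 of the microglia and 12 of the oligodendrocyte markers were lower and none was higher. The summed oligodendrocyte level did not fall in every TRAP library: it was 704 to 7344 CPM in TRAP and 3159 to 3971 in WCH. In SNF that sum was 8380 to 11578 CPM and in SynapTRAP 10174 to 22604. In SynapTRAP against TRAP, 20 astrocyte, 20 microglia and 16 oligodendrocyte markers were higher. In SynapTRAP against SNF, 0 of the 20 astrocyte, 1 of the 20 microglia and 3 of the 19 oligodendrocyte markers were lower and none was higher. Of all genes, 1.79% were called lower there. Without SynapTRAP replicate 3 the lower counts were 0, 1 and 1. How far SynapTRAP reads tagged neuronal ribosomes alone was not tested. The part of glial RNA in the rise of Slc32a1, Vip, Reln or Erbb4 was not tested. Markers of excitatory neurons split in SNF against WCH, 6 higher and 8 lower of 20, and pan-neuronal markers 2 higher and 6 lower of 20. All 20 excitatory markers were detected in each group of this cortical tissue.

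The share of T at the second codon base was also read over all tested genes. The feature was chosen after the levels had been seen, and the cut is the share of Sst, a member that rose. The counts below are therefore a description of these data and not a test. Of the 2426 tested genes (18.8%) with a share at least that of Sst, 47.7% were higher and 6.22% were lower in SNF than in WCH, with a median of 0.95. Of the 10465 genes below it, 15.0% were higher and 19.1% were lower, with a median of -0.35. In SynapTRAP against TRAP the shares called higher were 41.2% and 17.7%. In TRAP against WCH they were 9.65% and 11.9%. Sst, Reln, Cck, Vip and Npy belong to the first set; Gad1, Gad2, Pvalb, Slc32a1 and Erbb4 to the second. Within the second, Pvalb and Erbb4 have the same share and moved in opposite directions in SynapTRAP against TRAP, and Slc32a1 sits at the median of all genes, so the share at the start does not sort every member.

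For each member the gene with the closest profile over the 12 libraries was found by the root mean square difference of centred log2 CPM. Gad1 was closest to Dhx36 (0.12) and Gad2 to Rbbp5 (0.26). Slc32a1 was closest to the lysosomal protease gene Ctsa (0.14), Reln to Disp2 (0.17), Erbb4 to the choline transporter gene Slc44a1 (0.15) and Vip to Acsl6 (0.24). Sst was closest to Mansc1 (0.32), Npy to the surface glycoprotein gene Thy1 (0.26), Cck to Slc27a4 (0.23) and Pvalb to Cdkn2d (0.18). Within the 10, Slc32a1 and Reln were nearest to each other (0.30), as were Gad1 and Gad2 (0.38), Npy and Cck (0.38), and Vip and Erbb4 (0.37). Pvalb had no close partner, its nearest being Gad2 at 0.58.

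The authors' deposited table for the synaptic band holds 3508 genes, where the count files hold 29879. It lists 7 of the 10: Slc32a1, Reln, Sst, Npy, Vip, Erbb4 and Cck, which are the 7 called higher in SNF here. That table was deposited with these same libraries, so the match is no independent check. Which groups its fold changes compare is not stated in the sources used here. By p-value Slc32a1 was the second of the 3508 in the authors' deposited table, with a log2 fold change of 2.76 and a false discovery rate of 2.19e-24. In the authors' deposited table Reln followed at rank 9 with 2.78 and Sst at rank 29 with 2.83, while Npy (2.14), Vip (1.83), Erbb4 (1.50) and Cck (2.02) stood at ranks 695, 705, 742 and 1566. Neither of the authors' other deposited tables, of 109 and 275 of the 29879 genes, lists any of the 10. With tables this short, that absence says little about the members.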

How the data were processed

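RNA was measured in 12 libraries, 3 each of WCH, TRAP, SNF and SynapTRAP, with cDNA made by a NuGEN kit per the labels' protocols. The submitters' processing notes name 4 tools (Bowtie2, STAR, HTSeq and edgeR), without versions; build, annotation and strand setting: not given in the sources used here. The authors deposited whole-number counts for 29879 genes per library, followed by 5 summary lines for uncounted reads, which held 19.3% to 58.3% of a library's reads and were left out. Per the file headers, 3 further tables by the authors hold log2 fold changes, likelihood ratio scores, p-values and false discovery rates for chosen genes; how these were chosen is not stated.

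Symbols, positions and exon lengths came from GENCODE M21 (GRCm38). Counts were fitted with edgeR 4.0.16 in R 4.3.3 (TMM scaling, filterByExpr, quasi-likelihood fit with robust dispersion, all 12 libraries sharing 1 spread, Benjamini-Hochberg over 13404 genes), tested beforehand on simulated data. Log2 CPM used a prior count of 2. Alternatives were RLE scaling, total counts, leaving out mitochondrially encoded genes, DESeq2 1.42.0, no filter, a filter of 10 CPM in 3 libraries, the replicate block, the groups of a comparison alone and each library left out. The members and the 18 other lists were chosen with earlier results of these data known. All 10 members are named; from each list at most 3 genes per comparison and direction, those of smallest adjusted p, could be named, and for each member the gene with the closest profile. Some single-gene results among the genes of GABA handling are not reported here. Intervals of fold changes are at the 95% level. Reads carry no molecular identifiers, so depth covers counting error only.

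Same-numbered SNF and SynapTRAP libraries deviated together from their group means (r over genes 0.218 to 0.378), as did TRAP and SynapTRAP (0.104 to 0.144), so the replicate number was taken to pair these groups. For WCH with TRAP (-0.01 to 0.06) and WCH with SNF (0.07 to 0.17) it was not. Yet differently numbered WCH and SNF libraries gave only -0.11 to 0.03, below every same-numbered value of these groups. The range of WCH with SNF overlaps that of TRAP with SynapTRAP, so where the pairing ends is not settled by these values. TRAP with SNF gave 0.02 to 0.10 and WCH with SynapTRAP -0.0035 to 0.16. The main fit uses no pairing, and the fit with the replicate block applies it to all groups.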

Additional observations from a re-analysis of the deposited data

How the results depend on the processing

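Of the settings tried for the fold changes of the 10 genes, 651 kept direction and side of the threshold, 32 gained a call, 27 lost one and 40 turned the sign. Scaling by total counts turned these log2 values: in TRAP against WCH Gad1 to 0.51 and Gad2 to 0.000216; in SNF against WCH Vip to -0.79, Npy to -0.51, Cck to -0.54 and Erbb4 to -1.05; in SynapTRAP against SNF Gad2 to 1.78, Slc32a1 to 1.90, Sst to 2.08, Pvalb to 1.67, Vip to 1.46, Npy to 1.78, Reln to 1.62, Cck to 1.93 and Erbb4 to 0.86; in SynapTRAP against TRAP Npy to -0.22 and Cck to -0.67; and in the interaction Slc32a1 to 0.63, Pvalb to 0.29, Npy to 0.30 and Reln to 0.48. That scaling moved the median of all genes by 0.58, -2.35, 1.95, -0.98 and 1.39 in these 5 comparisons. It called 4 members (0 higher, 4 lower) in SNF against WCH, where 11 of all genes were higher and 11441 lower. All 10 were called higher in SynapTRAP against SNF, beside 12171 of all genes, and 4 higher in the interaction, beside 6329. In TRAP against WCH it called 6 members higher and 0 lower (all genes 2862 and 231). In SynapTRAP against TRAP it called 1 higher and 3 lower (all genes 594 and 6403). Leaving out 1 library turned only values that were not called, with these ranges: in TRAP against WCH Gad1 -0.36 to 0.13; in SynapTRAP against SNF Slc32a1 -0.41 to 0.092, Sst -0.59 to 0.32, Npy -0.86 to 0.031 and Cck -0.54 to 0.17; in SynapTRAP against TRAP Gad1 -0.30 to 0.20 and Cck -0.30 to 0.54; in the interaction Gad2 -0.059 to 0.52. Members called when 1 library was left out ranged from 2 to 4 in TRAP against WCH, 7 to 8 in SNF against WCH, 0 to 1 in SynapTRAP against SNF, 5 to 7 in SynapTRAP against TRAP and 0 to 1 in the interaction; all genes called ranged from 1484 to 2835, 3340 to 4640, 55 to 952, 4365 to 5613 and 0 to 444. The groups of TRAP against WCH alone gave 8 members called (3583 of all genes). The interaction gave 2 in DESeq2, 3 with no filter and 1 with the replicate block (565, 512 and 366 of all genes). The cause was not tested where it is not the setting's own construction. With the replicate block, TRAP against WCH called 6 members (Slc32a1 gained, adjusted p = 0.0452), SNF against WCH 9 (Pvalb gained, adjusted p = 0.0469) and the interaction Cck, and no other call of a member changed. Of all genes the block called 3390 in TRAP against WCH and 5316 in SNF against WCH, in place of 2947 and 4966. Counts of all genes called moved by over 1.5 times in SNF against WCH (4966 to 11452 with total counts), in SynapTRAP against SNF (547 to 12177 with total counts, 964 in DESeq2, 887 with no filter, 834 with the replicate block and 261 with the groups alone) and in the interaction (116 to 6329, 565, 512, 366 with the replicate block and 200 with the stricter filter). Computed over counts outside the mitochondrial genome, levels were 1.87 to 2.49 times those given. Low counts limit Pvalb and Vip, and 3 libraries a group limit all tests.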
